A study of Mus musculus with 11 samples.

Results

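Gata1, Klf1, Tal1, Nfe2, Lmo2, Epor, Slc4a1, Rhag and Tfrc, 9 genes of the red cell lineage, were followed in normal mouse liver from embryonic to adult age. They were chosen by name, as every non-control probe of these genes on the array and their entries in the authors' gene table. Each of the 9 genes had 1 probe, and all 9 were among the 16704 genes tested out of 27962 gene names on the array. Livers of embryonic (E14.5 and E18.5, in days), newborn (postnatal day 5, P5) and adult mice (postnatal day 56, P56) were profiled on 3, 3, 2 and 3 Agilent arrays, each read in a pair of colours. Liver RNA was labelled with Cy5. Every array carried in Cy3 the same purchased reference, RNA from livers of normal adult mice, and no dyes were swapped. The labels give the embryonic ages as days 14 and 18 and call the replicates biological. The animals were normal at every stage, with no treatment or transgene. The study's methods name C57BL/6 embryos for the liver cells that were selected by E-cadherin and cultured. For the arrayed samples themselves, strain, sex and pooling are not given in the sources used here.

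The labels name mouse liver as the source of every sample, but in a second field they name hepatoblasts at E14.5, immature hepatocytes at E18.5 and hepatocytes at P5 and P56. The design speaks both of whole livers and of cells isolated from embryonic livers, and the sources do not settle which of them each embryonic array holds. The markers go beyond such cells. At E14.5 and E18.5 all 6 measured genes of the globin list, which includes the globin chaperone Eraf, were well above background in Cy5 on every array. So were all 12 megakaryocyte markers and all 13 macrophage markers. The hepatoblast genes Afp, Dlk1 and Gpc3 had mean log2 ratios to the adult reference of 6.60, 4.61 and 4.24 at E14.5. Other hepatoblast markers lay below the reference there, with Krt8 at -2.41, Krt18 at -2.11 and Cdh1 at -0.73. The median of all 8 hepatoblast markers ran from -0.47 to -0.22 on the E14.5 arrays. The arrays thus carried RNA of blood cells beside that of liver cells. In bulk RNA, fewer cells of a type and less RNA per cell cannot be told apart, and this holds for every difference given here.

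The fetal liver is the main site of red cell formation between the yolk sac and the bone marrow, and it gives up this role around and after birth. Red cell precursors depend on a small set of transcription factors. Gata1 and Tal1 bind DNA in a complex that the adaptor Lmo2 bridges, Klf1 binds CACCC boxes, and Nfe2 is the blood-restricted subunit of a factor that acts at globin loci. Epor receives the erythropoietin signal that keeps the precursors alive, Tfrc brings in the iron for haem, and Slc4a1 (band 3) and Rhag are proteins of the red cell membrane.

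The probes are what each value below rests on. The first 30 of the 60 bases of each probe are shown, in lower case and 5′ to 3′, so that each measurement can be traced to its transcript.
Gata1: gcgtgatcgccccactcagttcttgaaggt
Klf1: aaggaccgtatcccaaaagatgagccatta
Tal1: cctataggccaacactgcgggcgtgtgact
Nfe2: gaaccaaaatggaggctacagattgagctg
Lmo2: agctgggacggaaattgtgcaggagagact
Epor: gaacgggattggtgaagccatacttaaagt
Slc4a1: cccacaaggtctaagaaaagcgtttgccat
Rhag: agccgtctatcccaggctctaagaatgaag
Tfrc: tgagcaagatcacattaacaaagactagtt

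On the array's own build, mm7, the Gata1 probe lies at chrX:6392873-6392932, the Tal1 probe at chr4:114448057-114448117 and the Slc4a1 probe at chr11:102457981-102458040. The Klf1 probe lies at chr8:83491092-83491151, the Nfe2 probe at chr15:103237506-103237565 and the Epor probe at chr9:21837376-21837435. The Rhag probe lies at chr17:38880629-38880688 and the Tfrc probe at chr16:32306693-32306752. The coordinates given for the Lmo2 probe, chr2:103826971-103831684, span 4714 bases, more than the 60 bases of the probe itself. The accession of each probe carried the same symbol in RefSeq as on the array. The exon or UTR that a probe matches was not determined. Gata1 and Tfrc were printed in 10 spots each, and within an array the SD over these spots was 0.05 to 0.14 on the log2 scale for Gata1 and 0.07 to 0.14 for Tfrc. The other genes had 1 spot.

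Values are log2 ratios of Cy5 over Cy3 after background correction and loess normalization, so that 0 means the level of the adult reference. The correction adds an offset of 50 to each signal, which draws the ratio of a dim spot towards 0. They compare stages of 1 gene, and no level is set against that of another gene. Differences between stages come from 1 limma fit to the 11 arrays together, and a gene is called higher or lower where the p adjusted over all 16704 genes is under 0.05. Within a stage, Pearson's r between arrays across genes was 0.99 for E14.5, between 0.97 and 0.98 for E18.5, 0.90 for the P5 pair and between 0.83 and 0.94 for P56. Arrays were scanned in 4 runs. The first held all E14.5 arrays and E18.5 replicate 1, the second the other E18.5 arrays, the third P5 replicate 2, and the fourth P5 replicate 3 with all P56 arrays. P5 replicate 3 lay below P5 replicate 2, and below all 3 E18.5 arrays, in 9 of the 9 genes. The share of all genes that did so is not given here. Other genes parted on this pair too. The median of endothelial markers was 0.37 on replicate 2 and -0.07 on replicate 3, and that of macrophage markers -1.12 and -0.92. Scan and stage cannot be told apart between E18.5 and P5, and the part of the scan in that split was not tested.

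The 9 genes were well above the adult reference at E14.5, E18.5 and P5 and close to it at P56. In none of the 9 genes did a P56 array reach the lowest earlier array. Of these, Gata1, Tal1, Lmo2, Slc4a1 and Rhag entered the test through earlier stages alone, so that they had to differ at P56. The share of all genes that part in this way is not given here, while 34.7% were called lower at P56 against E14.5. Between E14.5 and E18.5 the genes parted, with Klf1, Tal1, Lmo2 and Epor lower at E18.5 and Slc4a1 higher. The steep fall came between P5 and P56.

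**Figure D1:**
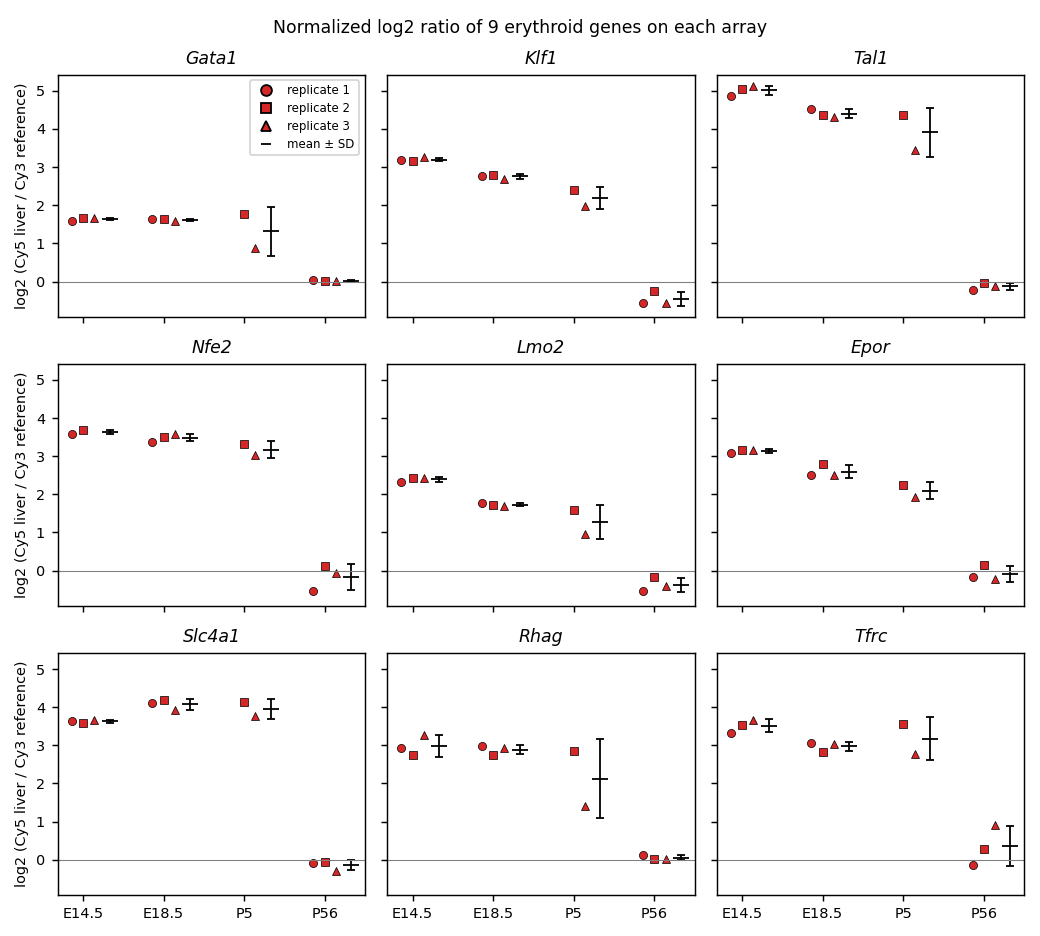
Normalized log2 ratio of liver (Cy5) over adult liver reference (Cy3) on the vertical axis against stage, for 9 erythroid genes, with 1 point per array and a bar for mean ± SD beside it (n = 3, 3, 2 and 3 arrays, and n = 2 for Nfe2 at E14.5). All arrays before P56 sit above all P56 arrays of the same gene, and P5 replicate 3 (triangle) sits below P5 replicate 2 (square) in each panel. The share of all genes that do either is not given here.

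Gata1, the master regulator of the lineage, read 1.60, 1.65 and 1.67 at E14.5 and 1.64, 1.63 and 1.58 at E18.5. The embryonic groups overlapped. At P5 it read 1.78 and 0.87, and at P56 0.03, 0.03 and 0.01. The E18.5 arrays differed from E14.5 by -0.03 (SE 0.17, adjusted p = 0.92), with a 95% interval of -0.40 to 0.35. Background-subtracted Cy5 signal of Gata1 nevertheless went from 859 ± 215 at E14.5 to 503 ± 94.7 at E18.5 (SD, n = 3), while its Cy3 signal went from 232 ± 57.1 to 121 ± 41.1.

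Tal1, the DNA-binding partner in the Gata1 complex, read 4.88, 5.04 and 5.12 at E14.5. It fell to 4.53, 4.37 and 4.32 at E18.5, with no overlap, a change of -0.61 (SE 0.18, adjusted p = 0.017). Leaving out E14.5 replicate 2, E14.5 replicate 3, E18.5 replicate 2 or E18.5 replicate 3 took this call just past the threshold (adjusted p = 0.051, 0.0604, 0.052 and 0.061). The P5 arrays read 4.37 and 3.46, the first of them inside the E18.5 range. At P56 the 3 arrays read -0.22, -0.04 and -0.12, and Cy5 was not well above background on any of them.

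Lmo2, which bridges Tal1 and Gata1, moved like Tal1 between the embryonic stages. It read 2.32, 2.44 and 2.43 at E14.5 and 1.77, 1.72 and 1.69 at E18.5, a change of -0.67 (SE 0.15, adjusted p = 0.0028). At P5 it read 1.60 and 0.96, both below E18.5, but the change of -0.45 was not called (adjusted p = 0.096). At P56 it read -0.53, -0.17 and -0.40.

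Klf1, an activator of adult beta globin and of many red cell genes, was the regulator called lower at each step. It read 3.18, 3.17 and 3.25 at E14.5, then 2.77, 2.81 and 2.69 at E18.5, then 2.39 and 1.98 at P5. No 2 neighbouring stages overlapped. The changes were -0.44 (SE 0.12, adjusted p = 0.010) and -0.57 (SE 0.14, adjusted p = 0.018), the second lost without E18.5 replicate 2 or P5 replicate 3 (adjusted p = 0.058 and 0.19). At P56 Klf1 read -0.56, -0.25 and -0.56.

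Nfe2 read 3.59 and 3.68 at E14.5, where the spot of replicate 3 was marked as an outlier and left out. At E18.5 it read 3.38, 3.51 and 3.57, and at P5 3.33 and 3.02. No neighbouring stages overlapped, but neither step was called, with changes of -0.15 (95% interval -0.54 to 0.24) and -0.32 (95% interval -0.71 to 0.08). At P56 it read -0.55, 0.11 and -0.07.

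Epor, the erythropoietin receptor, read 3.09, 3.17 and 3.16 at E14.5, 2.50, 2.78 and 2.50 at E18.5, and 2.25 and 1.94 at P5. As for Klf1, no neighbouring stages overlapped. It changed by -0.55 (SE 0.13, adjusted p = 0.0044) and then by -0.50 (SE 0.14, adjusted p = 0.041). The second call was lost on leaving out any 1 E14.5 array, any 1 E18.5 array or P5 replicate 3 (adjusted p = 0.0597 to 0.309). At P56 it read -0.17, 0.16 and -0.23.

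Slc4a1, the anion exchanger band 3 and the most abundant protein of the red cell membrane, ran against the regulators. Its ratio read 3.64, 3.59 and 3.67 at E14.5 and 4.12, 4.19 and 3.91 at E18.5, with no overlap. The rise was 0.44 (SE 0.12, adjusted p = 0.0097), but it was not called in the Cy5 channel alone (0.14, adjusted p = 0.53), and the Cy5 level after loess and Aquantile normalization was lower at E18.5 by -0.13. At P5 the ratio read 4.14 and 3.77, and at P56 -0.08, -0.05 and -0.29.

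Rhag, the Rh-associated glycoprotein, read 2.93, 2.73 and 3.28 at E14.5 and 2.97, 2.75 and 2.94 at E18.5, which overlapped. Its P5 arrays stood furthest apart of all genes, at 2.86 and 1.40, so the change from E18.5 of -0.76 was not called (adjusted p = 0.13). P56 read 0.13, 0.01 and 0.03, again with no array well above background in Cy5. The reference signal of Rhag was itself weak, with Cy3 well above background on all 3 arrays at E14.5, 1 of 3 at E18.5, 1 of 2 at P5 and none at P56.

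Tfrc, the transferrin receptor that is also used by other dividing cells, read 3.33, 3.53 and 3.68 at E14.5 and 3.06, 2.84 and 3.03 at E18.5. These groups did not overlap, but the change of -0.54 was not called (SE 0.25, adjusted p = 0.094). At P5 it read 3.57 and 2.78, on both sides of E18.5. At P56 it read -0.13, 0.27 and 0.91, the widest P56 spread among the 9 genes.

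From E14.5 to E18.5, 4 of the 9 genes were called lower, beside 22.9% of all genes tested, and 1 was called higher, beside 24.5%. The median change of the 9 genes was -0.44, against -0.01 over all genes. Within the first scan, which holds E18.5 replicate 1 and all E14.5 arrays, the called changes were -0.43 for Klf1, -0.49 for Tal1, -0.63 for Lmo2, -0.64 for Epor and 0.48 for Slc4a1. With the scan as a fixed block, these 5 genes were called in the same direction.

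The same step was also fitted in the Cy5 channel alone, which drops the reference and replaces loess by quantile normalization between arrays, so that the parts of these 2 changes cannot be told apart. There 8 of the 9 genes were called lower at E18.5, beside 27.3% of all genes, and none higher, beside 20.7%. Gata1 then changed by -0.97 (adjusted p = 6.1e-05), Klf1 by -1.23, Tal1 by -1.06, Lmo2 by -1.06 and Epor by -1.31. Rhag changed by -0.56 and Tfrc by -0.70. Only Slc4a1, at 0.14, was not called on either side. The Cy5 signals show the same split, since Klf1 went from 3212 ± 510 to 1707 ± 176 and Epor from 3905 ± 815 to 1924 ± 125, while Slc4a1 went from 22146 ± 5439 to 23490 ± 1995 (SD, n = 3 arrays per stage). In both scales Slc4a1 therefore had the highest value of the 9 changes.

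**Figure D2:**
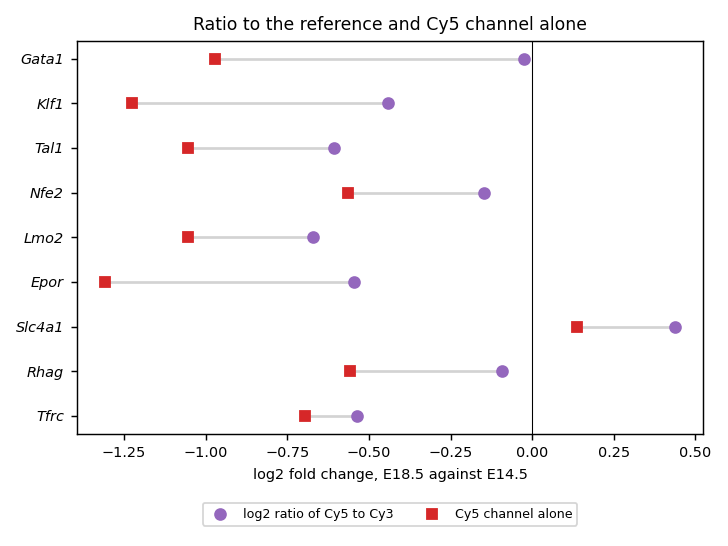
Log2 fold change of 9 erythroid genes at E18.5 against E14.5 (horizontal axis), as the ratio to the Cy3 reference (circle) and from the Cy5 channel alone (square). Each square lies left of its circle, Gata1 moves from -0.03 to -0.97, and Slc4a1 is the gene above 0 in both.

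The Cy3 channel held the same reference RNA on each array, yet its signal for some of these genes followed the liver sample. Slc4a1 read 1019 to 1854 in Cy3 on the 8 arrays before P56 and 88.3 to 111 on the 3 P56 arrays, a 14.2-fold difference between the means. On those 8 arrays its Cy3 signal was 5.05 to 7.30% of its Cy5 signal, which ran from 15197 to 32075. For Gata1 the Cy3 means differed 4.22-fold, for Rhag 2.29-fold and for Tal1 2.12-fold, and for Tfrc, Lmo2, Epor, Nfe2 and Klf1 by 1.14 to 1.54-fold.

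The genes Igf2, Eraf, Rhd, Hbb-y, Dlk1, Bex4, Hbb-bh1 and Hemgn were as bright in Cy5 at E14.5 and as dim in the reference on P56 arrays (a mean Cy5 signal over 10000 and a mean Cy3 signal under 150). Over these 9 genes with Slc4a1, the Cy3 signal at E14.5 was 0.81 to 8.39% of Cy5, with a median of 3.70%, and the median Cy3 signal was 1078 at E14.5 and 27.1 at P56. Between P56 and E14.5 the difference was smaller as a ratio than in the Cy5 level after loess and Aquantile for all 9 genes, and by most for Slc4a1 (-3.77 against -7.51) and Gata1 (-1.62 against -3.37). The source of this Cy3 signal was not tested.

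**Figure D3:**
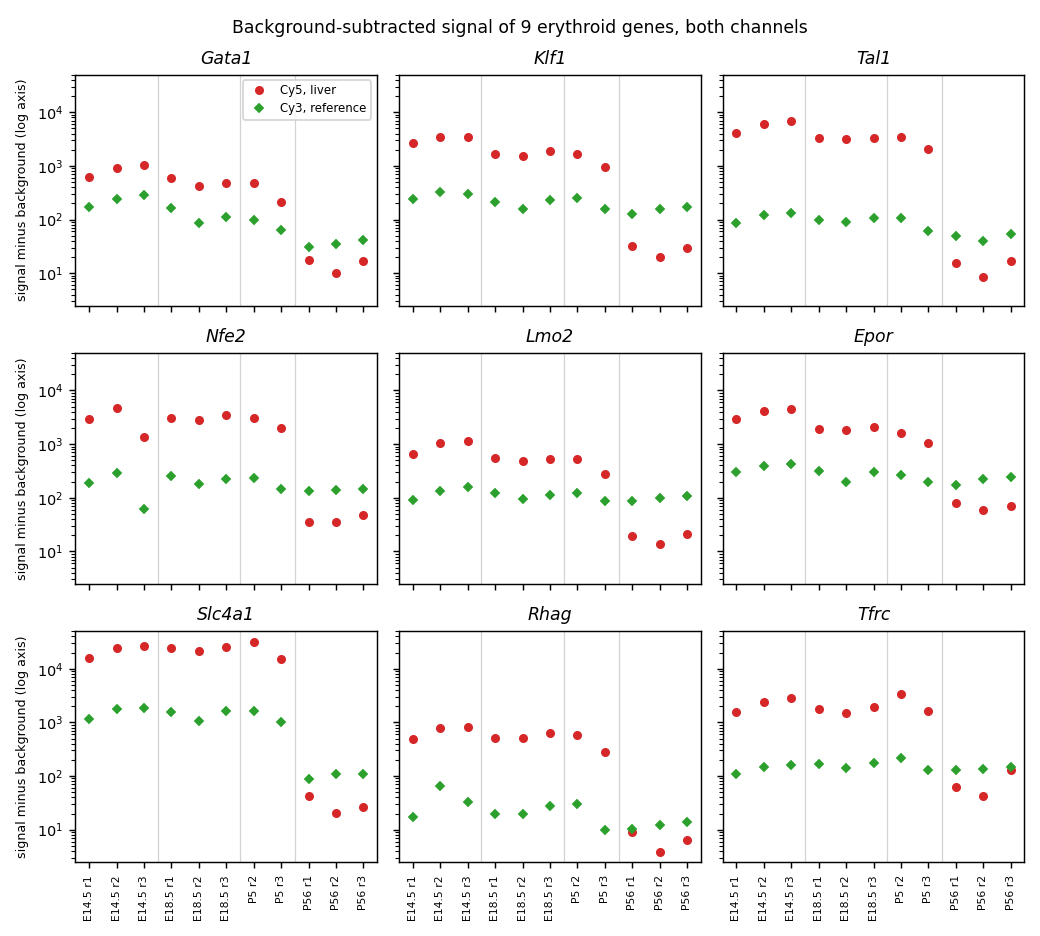
Background-subtracted signal on a log axis for the liver sample (Cy5, circles) and the adult reference (Cy3, diamonds) on each of 11 arrays, for 9 erythroid genes before normalization, the Nfe2 spot of E14.5 replicate 3 included. Cy5 lies above Cy3 on all 8 arrays before P56 and below it on all P56 arrays, and Slc4a1 shows the largest step in Cy3.

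From E18.5 to P5, 2 of the 9 genes, Klf1 and Epor, were called lower, beside 6.38% of all genes, and none was called higher, beside 7.31%. None was higher at an unadjusted p under 0.05 in limma either. In the Cy5 channel alone Gata1 was called lower as well (-0.47, adjusted p = 0.048). Without P5 replicate 3, which leaves 1 P5 array, the calls of Klf1 and Epor were lost, with changes of -0.36 and -0.34. Without E18.5 replicate 2 none of the 9 genes was called, beside 618 of all 16704 genes called lower and 760 higher. Without E18.5 replicate 1, E18.5 replicate 3 or any 1 of the E14.5 arrays Klf1 was called by itself. Beside it, 563 to 880 of all 16704 genes were called lower in these fits, and 1065 in the main fit. Without P5 replicate 2 there were 6 genes called lower, beside 11.5% of all genes. Replicate 3 of P5 shares its scan with the adult arrays and not with E18.5, so the scan cannot be told apart from the stage here.

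At P56 the Cy5 signals of Klf1, Nfe2, Epor and Tfrc stood well above background on each of the 3 arrays, as on all earlier ones. Lmo2 and Slc4a1 were well above background on 2 of the 3 P56 arrays, Gata1 on 1, and Tal1 and Rhag on none. These 5 genes entered the test through the earlier stages alone, so that they had to differ at P56. Their values there are a description, and their number supports nothing.

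From P5 to P56 the 4 genes well above background on every array were all called lower, beside 24.7% of all genes, and none was called higher, beside 21%. In a fit of only the 11325 genes well above background on all 11 arrays, 3064 were called lower and 3196 higher. Nfe2 changed by -3.34 (SE 0.18, adjusted p = 1.7e-07), Tfrc by -2.83 (SE 0.27, adjusted p = 8.6e-06), Klf1 by -2.64 (SE 0.14, adjusted p = 5.8e-08) and Epor by -2.18 (SE 0.14, adjusted p = 4.1e-07). Of the others, Slc4a1 differed in log2 ratio by -4.09, Lmo2 by -1.64 and Gata1 by -1.30. Within the fourth scan, against P5 replicate 3 by itself, the differences were -3.19 for Nfe2, -2.43 for Klf1, -2.43 for Tfrc, -2.02 for Epor, -3.90 for Slc4a1, -1.32 for Lmo2 and -0.85 for Gata1.

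Against E14.5, the same 4 genes were called lower at P56, beside 34.7% of all genes called lower and 36.2% called higher. Of the 11325 genes well above background on all 11 arrays, fitted by themselves, 3728 were called lower and 5008 higher. Nfe2 changed by -3.80, Klf1 by -3.65, Epor by -3.22 and Tfrc by -3.16. The log2 ratios of Slc4a1, Lmo2 and Gata1 differed by -3.77, -2.76 and -1.62.

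For Tal1 and Rhag the P56 level is only a bound. In Cy5, after loess and Aquantile normalization, Tal1 was at least 62.9-fold higher at E14.5 and at least 25.8-fold higher at P5 than at P56. Rhag was at least 10.2-fold higher at E14.5 and at least 5.55-fold higher at P5. The P56 values of Tal1 already lay above the lowest signal well above background, so its bound is the measured Cy5 difference. These bounds hold on the Cy5 scale alone. As ratios to the reference the differences from E14.5 and P5 were smaller, 35.3-fold and 16.5-fold for Tal1 and 7.60-fold and 4.21-fold for Rhag.

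**Figure D4:**
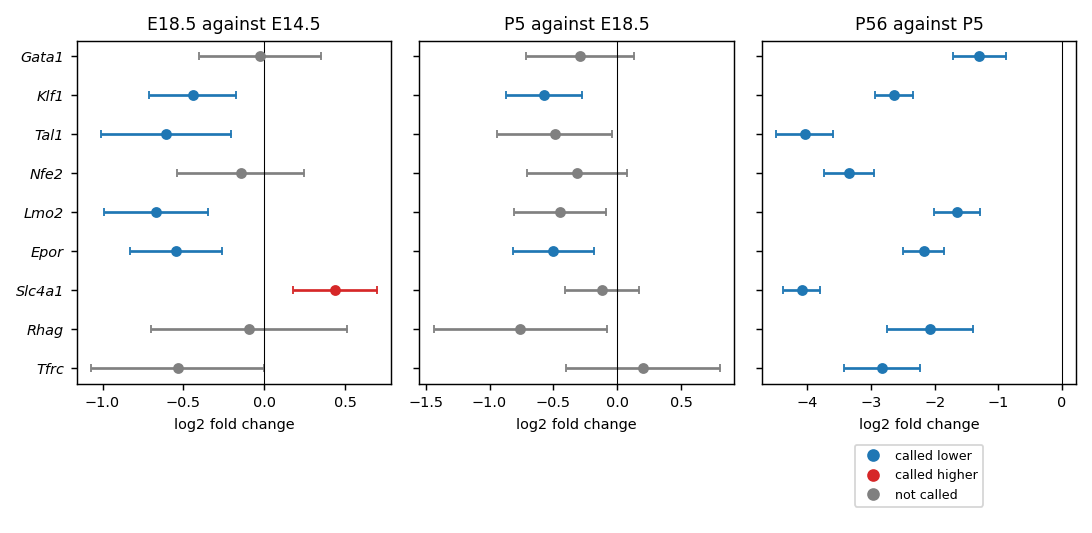
Log2 fold change with its 95% interval (limma, horizontal axis, which differs in range between panels) for 9 erythroid genes in the 3 steps from E14.5 to P56, coloured by the call at an adjusted p under 0.05. Of the 9 genes, 5 are called in the first step and 2 in the second. In the last step the intervals of Klf1, Nfe2, Epor and Tfrc lie below 0, the nearest ending at -1.86 for Epor. The other 5 intervals lie below 0 too, but their genes entered the test through earlier stages alone, so that they had to differ at P56.

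Counts in the lists below are to be read beside the shares of all genes tested. These were 22.9% lower and 24.5% higher at E18.5 against E14.5. At P56 they were 34.7% and 36.2% against E14.5, and 24.7% and 21% against P5. The other genes of the lineage were taken from fixed lists. At P56 many of these genes were not well above background in Cy5 and passed the filter through earlier stages, so the counts and medians of lower genes at P56 are descriptions. On the P56 arrays 12 to 14 of 18 erythroid factors, 16 to 21 of 21 pathway genes and 11 to 13 of 24 membrane genes were well above background. So were 14 of 14 haem synthesis genes and 3 to 4 of 6 genes of the globin list. Of 18 further erythroid transcription factors and cofactors, 3 were called lower and 1 higher at E18.5 against E14.5, beside 22.9% and 24.5% of all genes. Their median was -0.14. Lyl1, a close relative of Tal1, fell by 0.55 and Gata2, a relative of Gata1 used in earlier cells, by 0.48, while Hes6 rose by 0.80. At P56 against E14.5, 15 were called lower and 1 higher, led by Hmgb2 (-4.76), Lyl1 (-4.30) and Gfi1b (-3.73), a repressor of the lineage.

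Among 21 tested genes of the erythropoietin and transferrin pathway, 8 were called higher and 2 lower at E18.5. The genes that rose most serve iron in the liver as a whole, with Trf (transferrin, 4.35), Slc40a1 (the iron exporter ferroportin, 2.00) and Aco1 (an iron regulatory protein, 1.88). At P56 against E14.5, 9 were higher and 7 lower, beside 36.2% and 34.7% of all genes. Hfe changed by 2.85, Cish by 1.82 and Trfr2, the second transferrin receptor, by 1.72. Against E14.5, Tfrc thus went the other way from Trfr2, -3.16 against 1.72. From P5 to P56 both fell, by -2.83 for Tfrc and -1.14 for Trfr2.

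Of 24 red cell membrane and skeleton genes, 22 were called lower at P56 against E14.5 and 2 higher, with a median of -2.70. Rhd, the Rh protein that Rhag accompanies, changed by -4.60, the glucose transporter Slc2a1 by -4.19 and Epb4.2, which binds band 3, by -3.95. At E18.5 against E14.5, 3 were called lower and 3 higher, beside 22.9% and 24.5% of all genes. Among them were Aqp1 (1.94), Cd36 (1.38) and Slc2a1 (-0.90), and liver endothelium also uses Aqp1 and Cd36. In the Cy5 channel alone 11 of the 24 were called lower and 4 higher, beside the 27.3% and 20.7% of all genes.

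Of 14 haem synthesis genes, 10 were called lower and 1 higher at E18.5 against E14.5, with a median of -0.41, close to that of the 9 genes. BC010801, an older name of the glycine carrier Slc25a38, fell by 0.90, and Urod and Uros, both enzymes of the pathway, by 0.85 and 0.72. At P56 against E14.5, 12 were lower and none higher, with the mitochondrial iron importer Slc25a37 at -5.30, Alas2, the red cell form of the first enzyme, at -2.77 and Cpox at -2.72. Of 6 genes in the globin list, the embryonic Hbb-y, Hba-x and Hbb-bh1 changed by -2.58, -2.45 and -2.35 at E18.5. The adult Hba-a1 and Hbb-b1, named after their values were seen, rose by 0.71 and 0.70. All 6 were called lower at P56 against E14.5, with Hbb-y at -6.16, Eraf, the alpha globin chaperone, at -4.54 and Hbb-bh1 at -4.21.

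Markers of other cells moved in the same steps. All 14 tested hepatocyte markers were called higher at E18.5 against E14.5, with a median of 2.78. Their median log2 ratio ran from -3.86 to -3.53 on the E14.5 arrays and from -0.55 to -0.35 on the E18.5 arrays, and all 14 were well above background on every array. All 13 macrophage markers were called higher at E18.5 (median 1.47), and so were 7 of 11 endothelial markers, beside 24.5% of all genes. Of 7 progenitor markers, 3 were higher and 2 lower. Of 12 megakaryocyte markers, which share Gata1 and Nfe2 with red cells, 2 were higher and 2 lower. Their part in the changes of the 9 genes was not tested.

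At P56 against P5, 14 of 14 hepatocyte markers were still well above background, with 4 called higher and 4 lower, beside 21% and 24.7% of all genes. All 18 cell cycle genes were called lower (median -3.08), of which 11 to 14 were well above background on the P56 arrays, so that this count too is a description. Also called lower were 8 of 12 megakaryocyte, 8 of 13 macrophage, 8 of 11 endothelial and 3 of 7 progenitor markers. The median log2 ratio of the cell cycle genes was 2.28 to 2.95 at P5 and -0.77 to -0.30 at P56. It was 2.28 on P5 replicate 3, the array on which the 9 genes were lower, and 2.95 on P5 replicate 2. The part of dividing cells in the fall of the 9 genes was not tested.

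**Figure D5:**
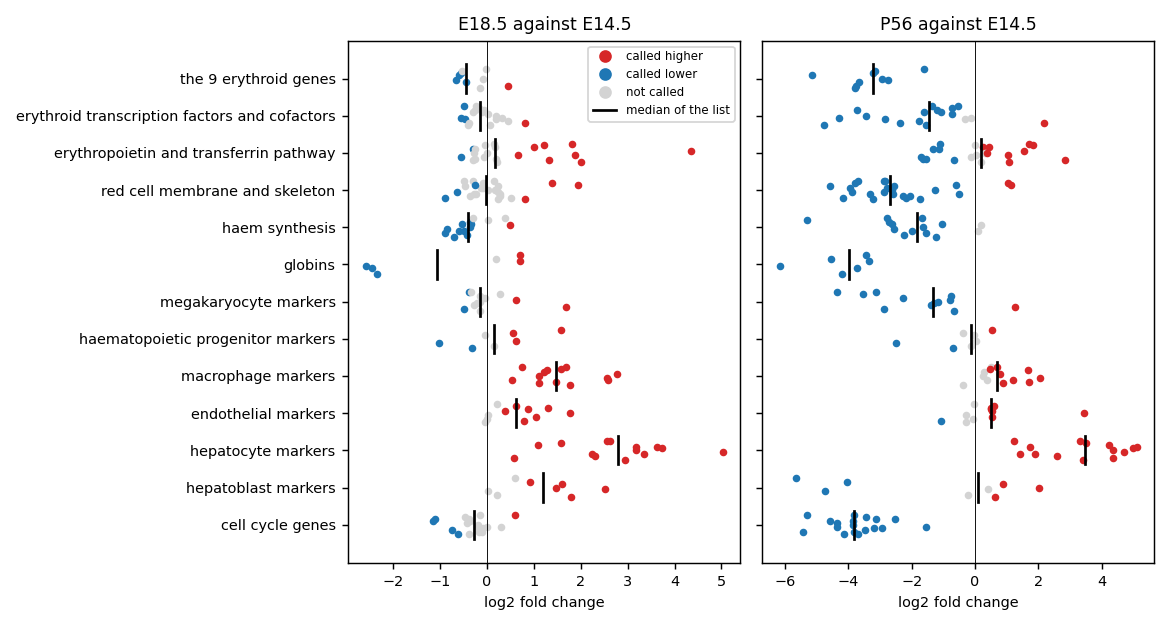
Log2 fold change of each tested gene (points, horizontal axis) by gene list (rows), at E18.5 against E14.5 and at P56 against E14.5, coloured by the call, with the list's median as a black line. The 9 erythroid genes have a median of -0.44 in the first comparison and -3.22 in the second, while the hepatocyte markers have 2.78 and 3.46.

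The genes most like each of the 9 over the arrays were named by Pearson's r, as a description without a test. The arrays fall into 8 high and 3 low ones for all 9 genes, so that r mostly restates this split, and 1087 to 2143 genes reached an r of 0.9 with any given one. Closest to Gata1 were Tmcc2, Kntc1 and Reep1 (r = 0.998, 0.997 and 0.997), and among the closest to Klf1 were 5730508B09Rik and Ptp4a3 (0.998 and 0.997). Tal1 was closest to Rrm1, Kif20a and Mcm2 (each 0.999), and Nfe2 over 10 arrays to 2810417H13Rik, Mcm6 and Incenp (0.999, 0.998 and 0.998), which are mostly genes of DNA replication and mitosis.

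Lmo2 was closest to Pdk3, Fen1 and Nup62 (each 0.998), and Epor to Casp2, Hnrpd and Klf1 (0.998, 0.998 and 0.997). Slc4a1 was closest to Rhd, 4930431B09Rik and E2f2 (0.998, 0.998 and 0.997), and Rhd is itself a red cell membrane protein. Rhag was closest to Kntc1, Top2a and Kif14 (0.998, 0.994 and 0.993). Tfrc had the loosest neighbours, Gypc, Rbbp8 and Jak2 (0.989, 0.987 and 0.987), with Gypc a glycophorin and Jak2 the kinase of the erythropoietin receptor. Among the 9 genes themselves, the 36 pairs had r of 0.90 to 1.00, with a median of 0.96.

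Since the 9 genes were all lower at P56 than before, their promoters were read from RefSeq (GRCm38.p6), as the 250 bases before each start. The table holds promoters for 6 of the 9 genes, Gata1, Klf1, Tal1, Epor, Rhag and Tfrc, with 2 each for Tal1 and Tfrc. Nfe2, Lmo2 and Slc4a1 were not analysed here. A GATA element, written AGATAA or TGATAA and searched on both strands, was found in 4 of these 8 promoters, those of Klf1, Epor and Rhag and 1 of Tal1, and in 16.6% of all 32851 promoters. CACCC was found in 7 of the 8 and in 52% of all promoters, CAGATG in 2 of the 8 (Klf1 and Epor) and in 14.4% of all, and TGAGTCA in 0 of the 8 and in 4.46% of all. CAGATG and AGATAA share the letters AGAT, and a match is a description of letters, not a bound site.

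The promoters of Klf1 and Epor, the genes called lower in every step, and of Rhag are shown with these motifs in capitals, TTATCT and TTATCA being GATA elements and GGGTG being CACCC on the other strand. They lie at chr8:84901732-84901981 (plus strand), chr9:21963577-21963826 (minus strand) and chr17:40810899-40811148 (plus strand), and each ends at the base before the start.
Klf1: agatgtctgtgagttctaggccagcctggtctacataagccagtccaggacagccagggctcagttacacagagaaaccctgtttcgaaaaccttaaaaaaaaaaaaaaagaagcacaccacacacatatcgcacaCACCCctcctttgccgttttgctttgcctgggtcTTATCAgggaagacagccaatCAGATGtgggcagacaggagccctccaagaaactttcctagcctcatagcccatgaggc
Epor: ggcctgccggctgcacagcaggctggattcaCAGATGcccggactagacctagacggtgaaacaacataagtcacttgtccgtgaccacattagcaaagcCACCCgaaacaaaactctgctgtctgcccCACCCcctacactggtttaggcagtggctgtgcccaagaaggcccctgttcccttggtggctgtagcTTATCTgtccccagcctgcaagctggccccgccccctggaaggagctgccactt
Rhag: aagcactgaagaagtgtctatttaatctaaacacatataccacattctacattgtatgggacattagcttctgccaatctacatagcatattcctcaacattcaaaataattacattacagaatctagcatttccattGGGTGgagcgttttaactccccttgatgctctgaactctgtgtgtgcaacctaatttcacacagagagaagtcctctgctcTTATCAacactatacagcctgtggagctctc

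In Klf1 the GATA element starts 80 bases before the start of the gene, in Epor 54 and in Rhag 31. Klf1 and Epor also hold CACCC and CAGATG, and Rhag holds CACCC alone beside its GATA element. In Gata1, CACCC stood at 74 and 52 bases before the start.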

How the data were processed

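The authors deposited scanner output of 11 arrays, whose intensities are spot signals and local backgrounds from Feature Extraction 9.5.1.1, and a table of log2 ratios per gene, with limma named in the submitters' processing notes. The settings of that table are not given in the sources used here, and it served as an alternative.

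Mean signals were corrected by normexp (offset 50) with the median local background and normalized by loess within each array in limma 3.58.1 (R 4.3.3). Control and outlier spots were left out and spots of 1 probe averaged. Kept were probes whose Cy5 signal was marked well above background by every array of some stage and that lacked no more than 1 value in any stage. The brightest such probe represented its gene. The 4 stages were fitted together with lmFit and eBayes, and p-values were adjusted by Benjamini-Hochberg over 16704 genes. Whether replicates were separate animals or pools is not stated, so p-values measure the spread between these arrays, whose number limits the precision.

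Bounds set the bright stage against the dim one in Cy5 after loess and Aquantile, with dim values raised to the lowest signal well above background, and lack a dye swap. The fit was tested on simulated data: 93% of changes of 1 on the log2 scale were recovered between E18.5 and E14.5, 87% between P5 and E18.5 and 91% between P56 and P5. Of changes of 0.5, only 44.5%, 29.5% and 24% were recovered in these comparisons. The simulation changed a small part of the genes and drew independent noise for each value. In the data 22.9% of genes were called lower and 24.5% higher at E18.5 against E14.5. The recovered shares therefore do not give how often the real fit calls a change of that size.

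Named were the 9 genes, the 3 genes most like each by Pearson's r (1 of those for Klf1 is not reported here), and from each list genes among the 3 largest called changes of P56 and of E18.5 against E14.5. Lists held erythroid factors, the erythropoietin and transferrin pathway, red cell membrane, haem synthesis, globins, cell cycle, and markers of megakaryocytes, progenitors, macrophages, endothelium, hepatocytes and hepatoblasts. Genes and lists were chosen with earlier results of these data known. Alternatives changed the background correction, normalization, signal, filter, outlier spots, source table, scan or replicate block, test, fold threshold and arrays. Figures were drawn with matplotlib 3.10.9.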

Additional observations from a re-analysis of the deposited data

How the results depend on the processing

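For Klf1, Nfe2, Epor and Tfrc, well above background on every array, the fall at P56 kept its direction over all alternatives. It ran from -4.12 (Nfe2) to -2.02 (Epor) against P5 and from -4.82 (Klf1) to -2.61 (Tfrc) against E14.5. Over all 9 genes the values ran from -7.31 to -0.85 and from -7.49 to -1.24. These wider ranges are a description, since the other 5 genes had to differ at P56. Requiring Cy5 well above background on all 11 arrays leaves 4 of the 9 genes to test, and 4 were lower in both comparisons. The t-test of the methods after Benjamini-Hochberg called 1 of the 9 genes lower at P56 against P5, beside 195 of all 16704 genes. The limma fit called 9, beside 4118 of all genes, but 5 of the 9 had to differ at P56. Against P5 replicate 3 alone, the change of Gata1 was -0.85 in place of -1.30 and that of Rhag -1.35 in place of -2.07.

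At E18.5 against E14.5, the 1 gene called higher, Slc4a1, became 0 under median centring, in Cy5 alone, in the authors' table, under the filter on all 11 arrays (where it is not tested) and with a change of at least 1 required. Over all genes, 4096 of 16704 were called higher in the main fit. In those settings, in the same order, 3814, 3462, 3065 of 28050, 3348 of 11325 and 1526 were called higher. The 4 genes called lower became 2 with plain background subtraction, 1 with quantile normalization between arrays, 8 in Cy5 alone (which also changes the normalization), 2 under the filter on all 11 arrays, 1 in the authors' table and 0 with a change of at least 1, and 3 to 5 when 1 array was left out. Over all genes, 3818 of 16704 were called lower at E18.5 in the main fit. Lower calls were 3164 of 16691 with plain subtraction, 2575 with quantile normalization, 4566 in Cy5 alone and 325 with a change of at least 1. They were 2942 of 11325 under the filter on all 11 arrays and 1733 of 28050 in the authors' table. Leaving out 1 E14.5 or E18.5 array gave 2983 to 3471. At P5 against E18.5 the main fit called 1065 of 16704 genes lower. The alternatives that keep all arrays called 19 (the t-test after Benjamini-Hochberg) to 1626 (the t-test at an unadjusted p) lower. At that step, the 2 genes called lower became 0 without background subtraction, with plain subtraction, with processed signals, with quantile normalization, in the authors' table, in the t-test after Benjamini-Hochberg and with a change of at least 1. They became 1 with median centring, with no filter, with the scan as a random block and in the t-test at an unadjusted p, and 0 to 6 when 1 array was left out.

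Changes that reversed belong to genes not called. For Gata1 at E18.5 against E14.5 they were 0.027 without background subtraction, 0.16 with plain subtraction, 0.054 with processed signals, 0.014 with median centring, 0.33 with quantile normalization and 0.19 in the authors' table. For Rhag they were 0.24 with plain subtraction, 0.33 with processed signals, 0.19 with quantile normalization and 0.36 in the authors' table, with a range of -0.22 to 0.057 when 1 array was left out. At P5 against E18.5, Gata1 read 0.040 without background subtraction, 0.21 with plain subtraction, 0.18 with processed signals and 0.14 in the authors' table. With plain subtraction, quantile normalization and the authors' table, Tal1 read 0.11, 0.017 and 0.19, and Nfe2 0.033, 0.097 and 0.041. Slc4a1 read 0.093 with median centring and 0.28 with quantile normalization, and Rhag 0.13 with plain subtraction and 0.62 with processed signals. Leaving out 1 array gave -0.75 to 0.16 for Gata1, -0.31 to 0.066 for Slc4a1 and -0.19 to 0.60 for Tfrc. The cause of these shifts was not tested.

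Median centring put the median of all genes at -0.47 for P56 against P5 and at -0.33 for P56 against E14.5, beside which its values are to be read, and moved the share of higher among called genes to 6.87% at P56 against P5 (46.0% with loess) and 22.9% at P56 against E14.5 (51.0%). That share was 65.7% at P5 against E18.5 with plain subtraction (53.4% with normexp), 72.9% in the authors' table and 64.0% with a change of at least 1. It was 63.9% at E18.5 in the authors' table and 82.4% with a change of at least 1 (51.8%). With the replicate number as a block the counts were 1 higher and 4 lower, 2 lower, 9 lower and 9 lower in the 4 comparisons. Beside these, 3951 of all 16704 genes were higher and 3586 lower in the first, and 769, 3782 and 5673 lower in the others. The numbers do not pair the arrays, since the 15 same-numbered pairs correlated at -0.30 to 0.19.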
